A study of Homo sapiens with 18 samples.

Results

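The HOX cluster genes are 38 protein-coding genes of the HOXA, HOXB, HOXC and HOXD clusters, described here among 55765 gene symbols in a table of normalized transcript counts from G401 cells. They were taken by gene name: 10 HOXA genes, 10 HOXB genes, 9 HOXC genes and 9 HOXD genes. G401 is an established line of malignant rhabdoid tumour, a tumour type in which the chromatin remodelling subunit SMARCB1 is lost. All 18 libraries came from this line, and 3 edited lines were compared: a control targeted at the AAVS1 safe harbour site (WT, with RB1 intact), and clones E1 and F2, in which both alleles of the tumour suppressor RB1 had been disrupted with CRISPR/Cas9. E1 and F2 are each 1 clone, so a difference between a clone and WT cannot be told apart from other differences between clones. According to the study's design text, neither clone had detectable RB1 protein on an immunoblot. Each line was grown for 11 days with 10 µM tazemetostat, which inhibits the histone methyltransferase EZH2, or with as much of the solvent DMSO, in 3 biological replicates per group and 6 groups. The question the design poses is how transcript levels respond to EZH2 inhibition with and without RB1.

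HOX genes encode homeodomain transcription factors that set the identity of body segments along the head-to-tail axis. In each cluster the genes lie in the order of their paralogue number, with low numbers acting towards the head and high numbers towards the tail and the ends of the limbs. Their silent state is kept by Polycomb complexes, whose subunit EZH2 methylates histone H3 at lysine 27, and their active state by trithorax (MLL) complexes. HOX promoters are rich in CG dinucleotides, the sequence feature that many Polycomb-bound promoters share.

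Promoter sequence is shown for 4 genes that span the patterns described below: HOXD13, HOXD8 and HOXA13, which rose with tazemetostat in all 3 lines, and HOXD10, which had no read in any library although it lies in the same cluster as HOXD8 and HOXD13. Each run is the 250 bases upstream of a RefSeq transcription start on build GRCh38.p14, written 5′ to 3′ on the strand of the gene, with every CG dinucleotide in capitals. The motif searched was CG alone, which reads the same on both strands. The positions are chr2:176092471-176092720 (+ strand) for HOXD13, chr2:176129455-176129704 (+ strand) for HOXD8, chr7:27200092-27200341 (- strand) for HOXA13 and chr2:176116528-176116777 (+ strand) for HOXD10.
HOXD13: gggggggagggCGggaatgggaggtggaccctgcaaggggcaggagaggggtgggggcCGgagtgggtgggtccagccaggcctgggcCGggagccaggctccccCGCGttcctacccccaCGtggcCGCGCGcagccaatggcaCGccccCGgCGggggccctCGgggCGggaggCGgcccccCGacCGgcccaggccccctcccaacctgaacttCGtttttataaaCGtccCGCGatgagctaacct
HOXD8: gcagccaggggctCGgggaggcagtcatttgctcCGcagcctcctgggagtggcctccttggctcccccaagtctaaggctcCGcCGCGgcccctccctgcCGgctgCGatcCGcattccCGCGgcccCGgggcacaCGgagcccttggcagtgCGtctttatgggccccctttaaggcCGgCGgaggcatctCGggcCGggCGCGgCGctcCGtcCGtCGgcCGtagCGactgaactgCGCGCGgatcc
HOXA13: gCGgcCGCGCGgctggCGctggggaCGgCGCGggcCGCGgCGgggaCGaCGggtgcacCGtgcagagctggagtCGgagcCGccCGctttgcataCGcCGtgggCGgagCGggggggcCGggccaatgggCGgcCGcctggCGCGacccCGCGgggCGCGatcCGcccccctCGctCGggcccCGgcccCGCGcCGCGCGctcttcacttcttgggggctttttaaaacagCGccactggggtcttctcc
HOXD10: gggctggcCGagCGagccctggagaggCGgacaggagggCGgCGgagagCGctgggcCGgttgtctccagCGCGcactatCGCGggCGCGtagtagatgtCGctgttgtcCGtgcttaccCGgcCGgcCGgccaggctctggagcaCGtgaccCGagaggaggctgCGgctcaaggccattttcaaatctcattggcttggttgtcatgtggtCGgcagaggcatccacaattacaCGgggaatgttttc

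The HOXA13 run held 40 CG dinucleotides, more than 97.8% of the 35116 starts in the promoter table. The HOXD8 run held 28, the HOXD10 run 23 and the HOXD13 run 21. The HOXD10 start, whose gene had no read, thus lay between 2 starts whose genes rose. Promoters were found for 20 of the 38 genes, with 27 starts in all (HOXC4 and HOXC5 share 1), and their median was 19 CG dinucleotides against 11 over all starts. At least 1 CG was present in 93.9% of all starts and in 96.3% of HOX starts. The lowest counts were at HOXA3, where 1 of several starts held no CG, and at HOXD4, with 4.

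The depth recovered from the deposited values was 25709489 to 39314860 reads per library. RB1 transcript with DMSO stood at 2694 ± 132 normalized counts in WT (SD, n = 3), at 648 ± 138 in E1 and at 839 ± 30 in F2, in the direction of the labels. SMARCB1 had 0 reads in all 18 libraries, and VIM, a mesenchymal filament gene, lay between 27410 and 69993, so both defining markers of the labelled tumour type went with the label. The 4 immune markers summed to at most 7.26 normalized counts per library, and PTPRC and CD3E were at 0 in every DMSO library. The summed epithelial markers (EPCAM, CDH1, KRT8 and KRT18) went with the drug from a range of 39287 to 43898 to one of 270800 to 283120 in WT, from 56760 to 85167 up to 151661 to 158508 in E1, and from 22181 to 24417 up to 146779 to 157846 in F2. The summed fibroblast markers in F2 went from 3371 to 3523 up to 7134 to 8287, while DCN was at 0 in WT and E1 with DMSO, and the endothelial gene CDH5 went from at most 0.946 to between 3.87 and 28.3 over the 3 lines. The part of these markers in the HOX results below was not tested. In bulk RNA, fewer cells expressing a gene and less RNA per cell cannot be told apart. The replicates are labelled as biological, but nothing says whether they were separately treated cultures, so p-values measure the spread between these samples.

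In DMSO the HOX clusters of G401 were broadly transcribed, with the exception of much of HOXD. Of the 38 genes, 31 had a mean of at least 10 normalized counts over the 18 libraries and were tested: all 10 HOXA genes, 9 of 10 HOXB genes, 8 of 9 HOXC genes and 4 of 9 HOXD genes. A gene that passed this filter only because tazemetostat raised it, as HOXD13 did, had to differ between groups, and HOXC5 too had a mean under 10 over the DMSO libraries alone, at 8.99. The 7 that were not tested were HOXB1, HOXC12, HOXD1, HOXD4, HOXD10, HOXD11 and HOXD12. HOXD10 and HOXD11 had 0 reads in every library, and HOXB1, a hindbrain gene, had 1 read in 1 library, in WT with tazemetostat. With 3 reads per library taken as the floor, these 3 genes were not detectable in any group.

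Levels of different genes were compared per kilobase of merged exons. HOXB13, a tail-end gene best known for its expression in prostate and colon, stood with DMSO at 1347 normalized counts per kb in WT, at 1443 in E1 and at 1213 in F2, the highest of the 38 in each line. HOXC10, a hindlimb and lumbar gene, came next at 554, 548 and 642 per kb in WT, E1 and F2. In WT it was followed by HOXC13 at 446, HOXC8 at 418, HOXA9 at 361 and HOXA7 at 348 per kb. The HOXC genes described made up 38.2% ± 1.1 (SD, n = 3) of the summed HOX level per kb in WT with DMSO, the HOXB genes 36.4% ± 0.95, the HOXA genes 24.3% ± 0.71 and the HOXD genes 1.14% ± 0.065. HOXD thus lay far below the other clusters, beyond the replicate spread. In the plot of transcript levels in each library, the highest HOXD genes in DMSO were HOXD3, HOXD8 and HOXD9, and their level per kb lay between 16.0 and 29.6 in WT.

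**Figure D1:**
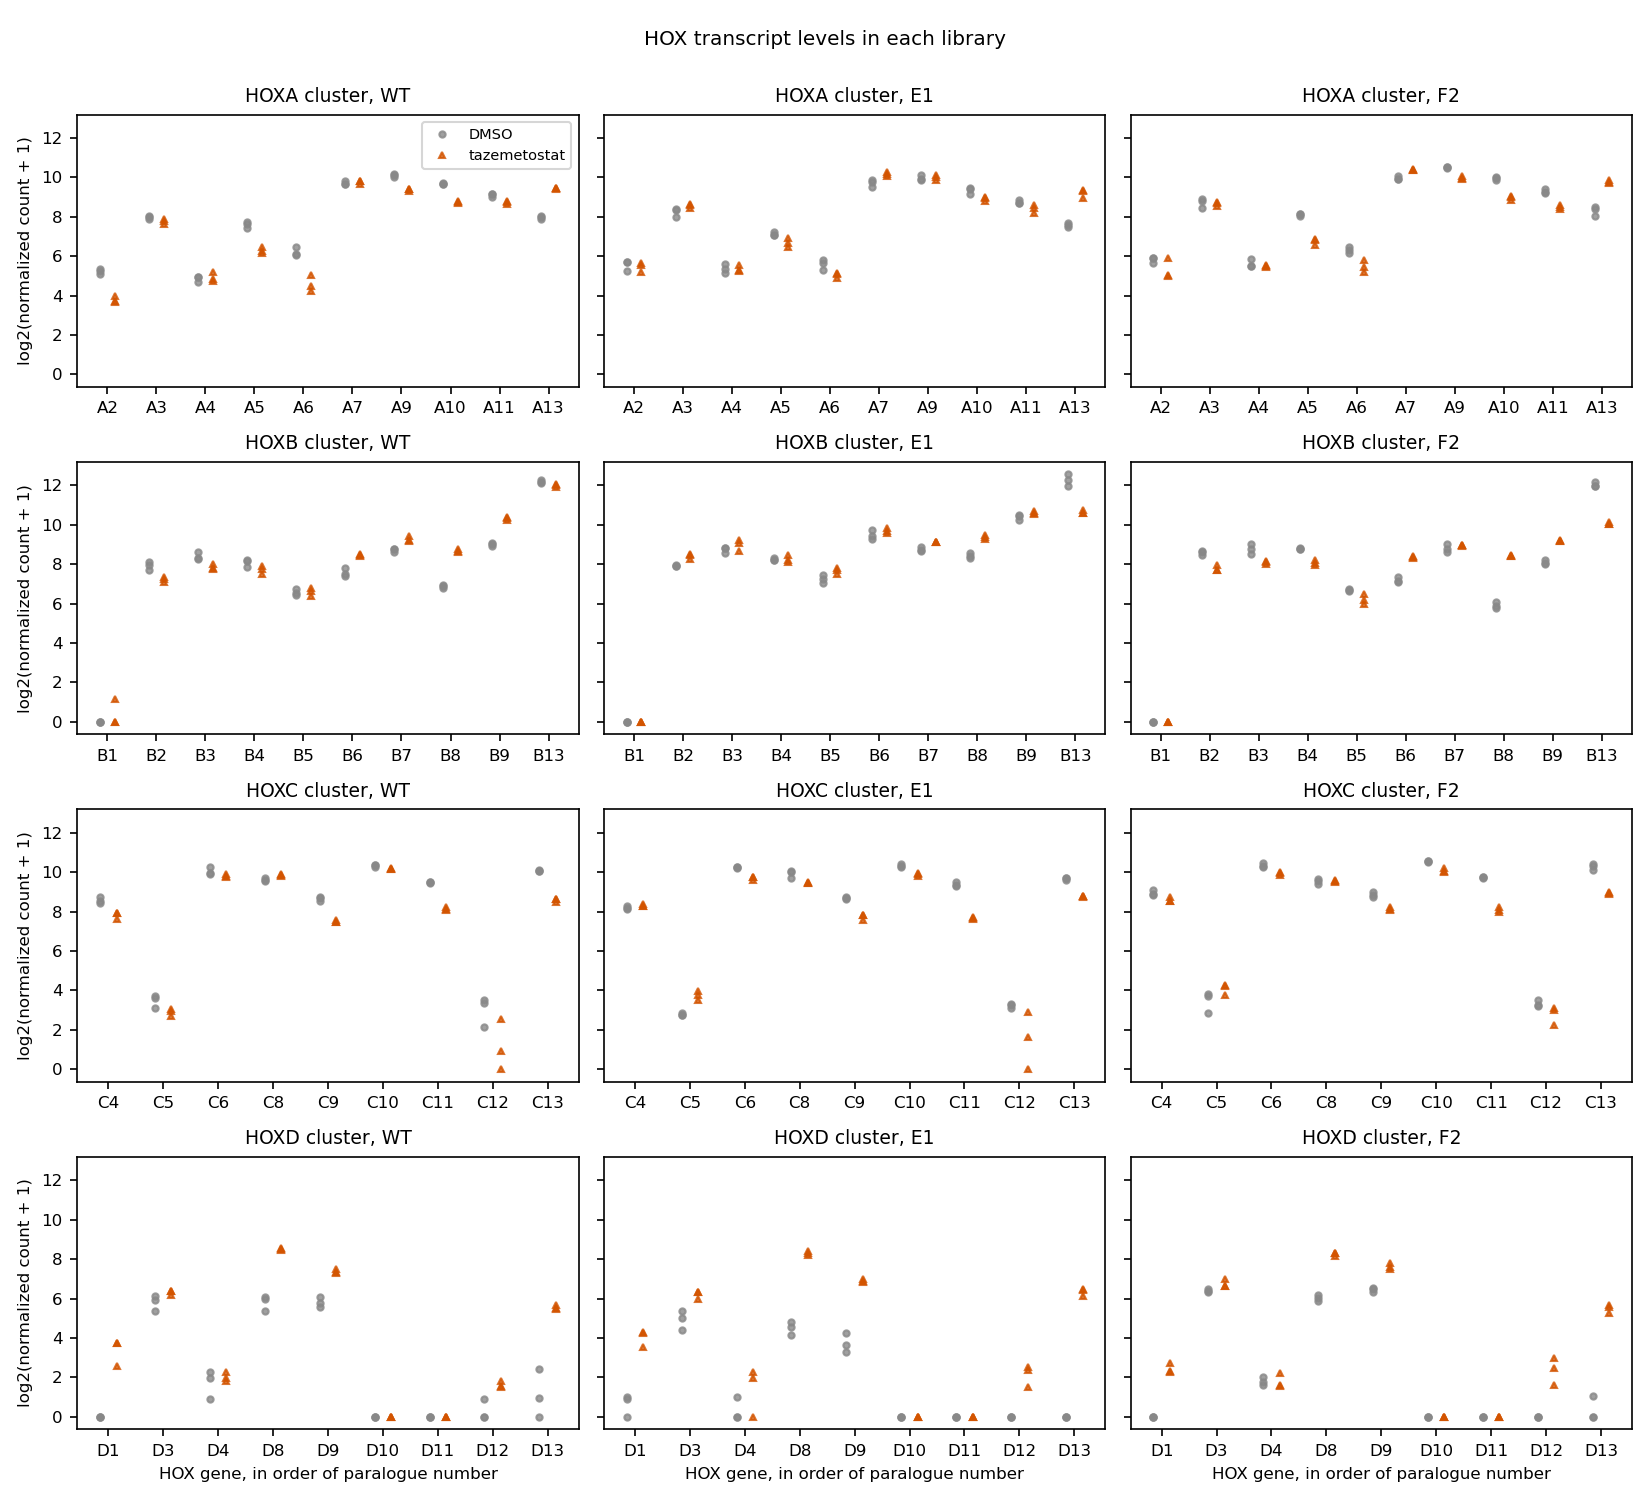
Level of each of the 38 HOX genes as log2(normalized count + 1), on the y axis, in every library of WT, E1 and F2 (columns), by cluster (rows) and paralogue number (x axis). Grey points are DMSO libraries and orange triangles tazemetostat libraries, 3 of each per line; HOXD1, HOXD8, HOXD9 and HOXD13 moved up in all 3 lines, and HOXD10 and HOXD11 stayed at 0.

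With tazemetostat most HOX genes stayed within the threshold in each line; every HOXD gene that passed it rose, every HOXC gene that passed it fell, and HOXA and HOXB held genes of both kinds. The threshold was a Benjamini-Hochberg adjusted p under 0.05 in limma together with a change of at least 1 on the log2(value + 1) scale. In WT, 6 of the 31 tested HOX genes rose past it and 6 fell, where 14.5% of all 16154 tested genes rose and 6.77% fell. Of all calls in WT, 68.2% were higher, or 57.7% with libraries scaled to the same total. In E1, 5 rose and 2 fell, against 11.3% and 3.78% of all genes, and in F2, 7 rose and 4 fell, against 13.3% and 3.71%. Without HOXD13, which the filter fixed as different, 5, 4 and 6 of 30 rose in WT, E1 and F2. Over the 31 genes the median log2 change in WT was -0.20 (all tested genes, 0.03), in E1 0.14 (0.03) and in F2 -0.42 (0.02). HOXA13, HOXD8, HOXD9 and HOXD13 rose and HOXC11 fell past the threshold in all 3 lines. The summed level per kb of the 9 HOXD genes went from 69.8 ± 4.2 (SD, n = 3) to 278 ± 10 in WT, from 24.5 ± 5.4 to 255 ± 6.4 in E1 and from 96.2 ± 2.0 to 281 ± 17 in F2. That of the HOXC genes went from 2335 ± 105 to 1685 ± 41 in WT, from 2314 ± 126 to 1514 ± 34 in E1 and from 2658 ± 76 to 1758 ± 77 in F2. The HOXC sums did not overlap between DMSO and tazemetostat in any line. The HOXA sum went from 1481 to 1157 in WT, from 1319 to 1427 in E1 and from 1878 to 1598 in F2. That of HOXB went from 2220 to 2647 in WT, from 3013 to 2487 in E1 and from 2091 to 1398 in F2. Falls without overlap were thus also seen for HOXA in WT and F2 and for HOXB in E1 and F2. All these sums were described without a test.

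**Figure D2:**
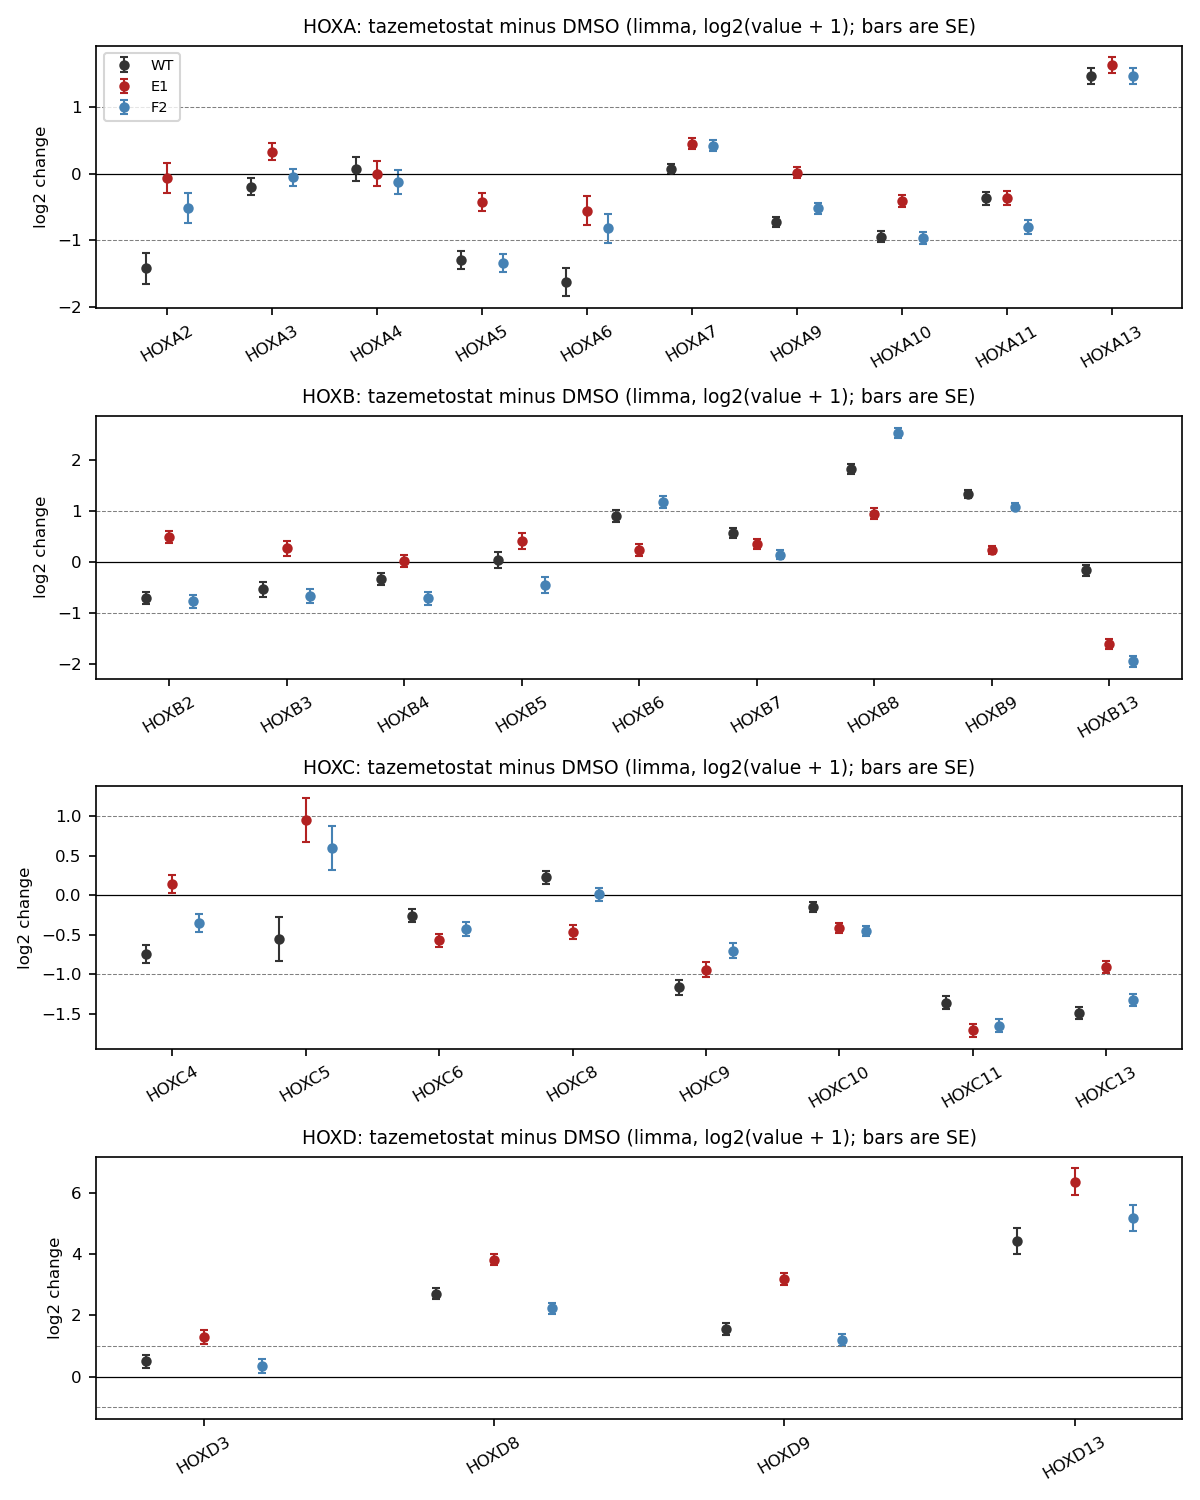
Log2 change with tazemetostat (y axis, limma on log2(value + 1)) for the 31 tested HOX genes by cluster and paralogue number (x axis), in WT (black), E1 (red) and F2 (blue), with bars of 1 SE and dashed lines at a change of 1 in either direction. HOXD8, HOXD9 and HOXD13 lie above the upper line in every line of cells, and HOXC11 lies below the lower one, at -1.36 in WT, -1.71 in E1 and -1.65 in F2.

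HOXD13, which patterns digits and the genital bud, went from near absence to at least 37.9 counts. Its normalized counts in WT were 4.37, 0 and 0.946 with DMSO and 43.4, 50.5 and 44.3 with tazemetostat. In E1 they were 0, 0 and 0, then 68.1, 89.9 and 86.7, and in F2 0, 1.04 and 0, then 37.9, 49.5 and 47.2. No DMSO library reached the lowest tazemetostat library. The ratio of means was 26.0 in WT (95% counting interval 11.3 to 69.8) and 130 in F2 (21.9 to 4927). In E1, where no DMSO library held a read, HOXD13 was at least 28.8-fold higher, computed against 3 reads in each library. Because HOXD13 entered the test through its tazemetostat libraries, with a mean of 0.706 over the DMSO libraries and 57.5 over the others, no p-value is given for its change with the drug.

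HOXD8 rose to a similar level in every line from unequal starting levels. In WT its counts were 66.4, 62.2 and 40.7 with DMSO and 364, 383 and 346 with tazemetostat, a log2 change of 2.70 ± 0.18 (SE) with a limma adjusted p of 1.59e-10. In E1 they were 17, 22.2 and 27.3, then 319, 343 and 291, a change of 3.81 ± 0.18 (limma adjusted p 1.14e-12). In F2 they were 63.5, 71.6 and 58.2, then 317, 281 and 320, a change of 2.23 ± 0.18 (limma adjusted p 3.01e-09). With tazemetostat the 3 lines spanned 281 to 383 counts, and with DMSO the E1 libraries lay below all WT and F2 libraries.

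HOXD9, a neighbour of HOXD8 on chromosome 2, followed the same order. It went from 47.2, 52.8 and 66.2 to 154, 159 and 179 in WT, from 11.6, 18.3 and 8.77 to 128, 114 and 117 in E1, and from 92.2, 78.8 and 88.6 to 222, 196 and 180 in F2. The log2 changes were 1.56 ± 0.20 (SE; limma adjusted p 1.42e-06) in WT, 3.17 ± 0.20 (8.64e-11) in E1 and 1.19 ± 0.20 (4.75e-05) in F2. HOXD3, at the head end of the cluster, passed the threshold in E1, where it went from 20.5, 40.5 and 31.2 to 80.9, 62.9 and 79.1, a change of 1.29 ± 0.22 (limma adjusted p 9.16e-05). Its changes in WT and F2 were 0.50 and 0.35, with limma adjusted p of 0.0576 and 0.204. In the reference annotation 62.2% of the HOXD3 exons overlap another gene on the same strand, so the assignment of its reads is uncertain.

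Among the HOXD genes below the test's filter, HOXD1 had 0, 0 and 0 counts in WT with DMSO and 4.93, 12.2 and 12.3 with tazemetostat. In E1 it had 0.893, 0 and 0.974, then 18.1, 10.6 and 18.8, and in F2 0, 0 and 0, then 3.88, 4.04 and 5.55. With tazemetostat HOXD1 was at least 3.55-fold higher in WT and at least 1.37-fold higher in F2, against 3 reads per library, and in E1 the ratio was 25.5 (95% counting interval 6.6 to 214). In that annotation 58.1% of its exons lie antisense to other genes, among them HAGLR, the current symbol of HOXD-AS1, and whether the counting used strand is not given in the sources used here. HOXD12 had at most 1 read per library with DMSO. With tazemetostat it had 2 reads in each WT library, under the floor, 2 to 5 in E1 and 2 to 7 in F2. HOXD4, most of whose exons overlap another gene, stayed at 4 reads or fewer everywhere. HOXD10 and HOXD11, which lie between HOXD9 and HOXD12, had no read under the drug either. In the annotation 16.8% of the HOXD10 exons overlap HOXD11 and 21.4% of the HOXD11 exons overlap HOXD10, on the same strand. The part of this overlap in their 0 reads was not tested.

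Among the genes of paralogue group 13 in the other clusters, HOXA13 rose in all 3 lines, HOXC13 fell in WT and F2, and HOXB13 fell in E1 and F2. HOXA13, a partner of HOXD13 in limb and genital patterning, had 254, 263 and 233 counts in WT with DMSO and 696, 701 and 686 with tazemetostat. In E1 it went from 188, 177 and 208 to 504, 626 and 658, and in F2 from 337, 365 and 263 to 873, 851 and 924. The groups did not overlap in any line. WT changed by 1.47 ± 0.12 on the log2 scale (SE), E1 by 1.63 ± 0.12 and F2 by 1.47 ± 0.12, with a limma adjusted p of at most 2.97e-09.

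HOXC13, known for its part in hair and nail formation, went from 1107, 1056 and 1081 to 395, 361 and 393 in WT and from 1288, 1351 and 1108 to 512, 488 and 482 in F2. These were log2 changes of -1.50 ± 0.08 (SE) and -1.33 ± 0.08, with limma adjusted p of 3.37e-12 and 1.96e-11. In E1 it had 837, 769 and 842, then 425, 445 and 436, a change of -0.90 ± 0.08 that missed the fold limit (limma adjusted p 7.51e-09). HOXC11, in the same cluster, had 712, 735 and 734 counts in WT with DMSO and 306, 277 and 267 with tazemetostat. HOXC11 went from 737, 630 and 651 to 200, 209 and 204 in E1 and from 876, 842 and 879 to 304, 252 and 272 in F2. The log2 changes for WT, E1 and F2 were -1.36, -1.71 and -1.65, each ± 0.08 (SE), with limma adjusted p values of 7.64e-11, 2.96e-12 and 4.51e-12. HOXC12, between them and below the filter, had 3.49 to 10.4 counts with DMSO and 0 to 7.77 with tazemetostat over the 3 lines. HOXC11 thus passed in all 3 lines and HOXC13 in WT and F2, while HOXC12 was too low to test.

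HOXB13, the highest HOX transcript per kb in DMSO, kept its level in WT within 1.12-fold and fell far below it in both clones. Its counts in WT were 4607, 4919 and 4482 with DMSO and 4306, 4203 and 3947 with tazemetostat. In E1 they were 4939, 6071 and 3995, then 1717, 1574 and 1552, and in F2 3963, 4676 and 3973, then 1143, 1045 and 1067. With DMSO the 3 lines overlapped, and with tazemetostat no clone library came near a WT library. HOXB13 was 3.10-fold lower with tazemetostat in E1 and 3.87-fold lower in F2, with log2 changes of -1.61 ± 0.11 (SE) and -1.95 ± 0.11. The limma adjusted p was 2.41e-10 in E1 and 1.17e-11 in F2. In WT the change was -0.17 ± 0.11, with a limma adjusted p of 0.177.

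**Figure D3:**
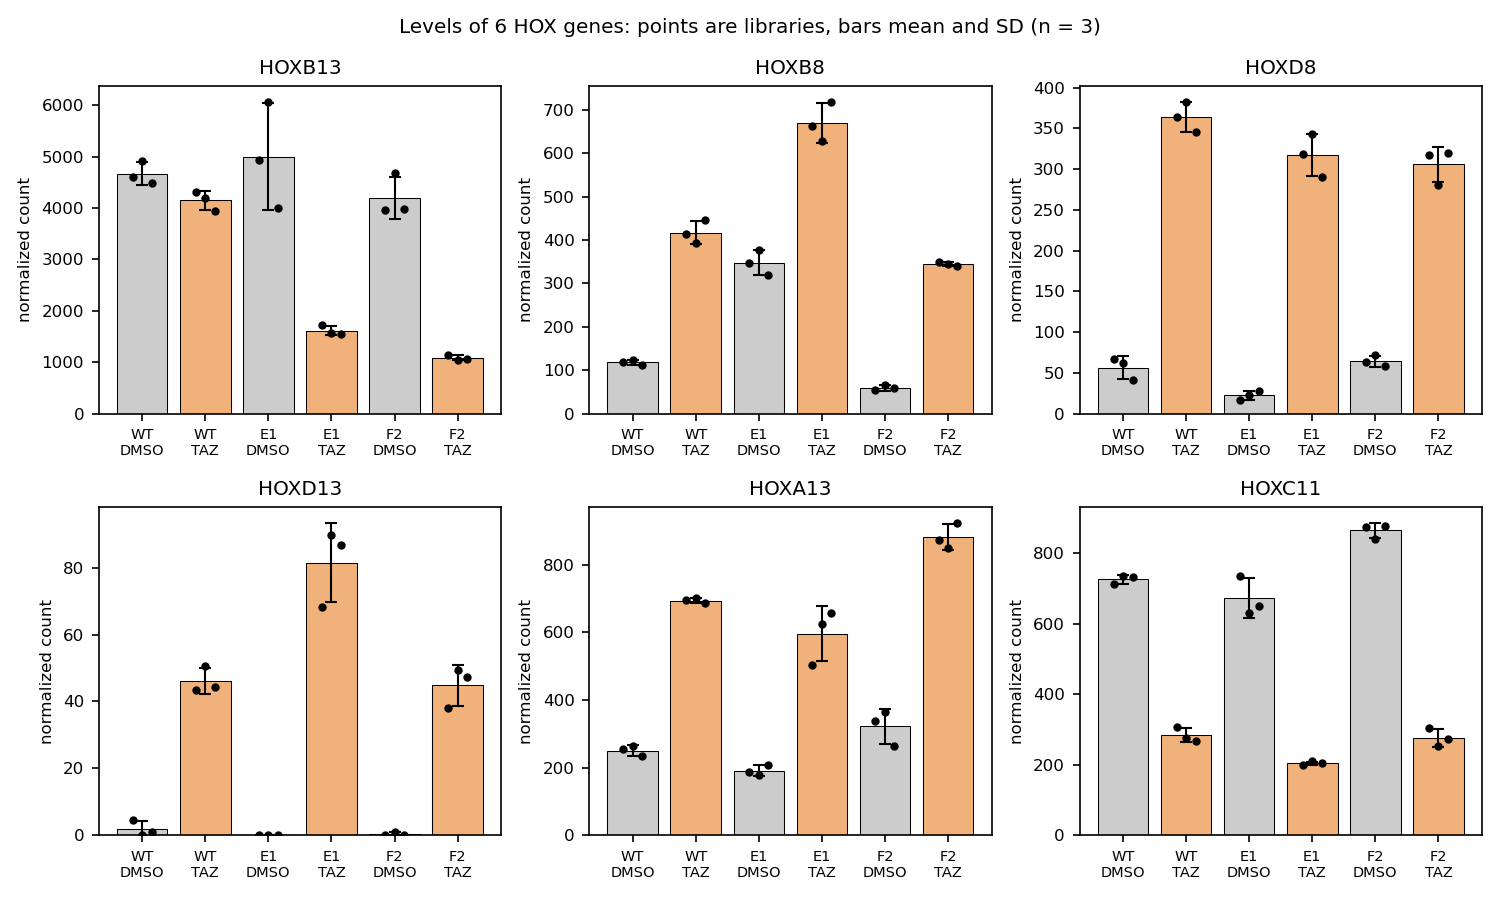
Normalized counts (y axis, linear from 0) of HOXB13, HOXB8, HOXD8, HOXD13, HOXA13 and HOXC11 in the 6 groups (x axis). Points are libraries, bars group means and whiskers SD (n = 3), in grey for DMSO and orange for tazemetostat (TAZ); HOXB13 stayed at 3947 or more in WT and went to between 1045 and 1717 in E1 and F2 with tazemetostat.

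In the middle of the HOXB cluster, HOXB8 and HOXB9 rose past the threshold in WT and F2, and HOXB6 in F2. HOXB8 had 118, 124 and 112 counts in WT with DMSO and 414, 392 and 445 with tazemetostat, and 53.3, 66.4 and 58.2 in F2, then 349, 344 and 339. In E1 it went from 347, 377 and 320 to 663, 628 and 719. Its log2 change in WT was 1.81 ± 0.10 (SE; limma adjusted p 1.39e-11) and in F2 2.52 ± 0.10 (1.04e-13), and in E1 it was 0.94 ± 0.10, under the fold limit (limma adjusted p 2.56e-07), which it reached without E1 DMSO replicate 2. HOXB9, a thoracic gene, went from 492, 525 and 532 to 1324, 1362 and 1224 in WT, from 259, 298 and 271 to 578, 579 and 594 in F2, and from 1448, 1212 and 1381 to 1570, 1517 and 1643 in E1. This was a change of 1.33 ± 0.08 in WT (limma adjusted p 2.04e-11), 1.08 ± 0.08 in F2 (5.22e-10) and 0.23 ± 0.08 in E1 (0.0192). HOXB9 in E1 therefore started where WT ended, with the untreated E1 libraries at 1212 to 1448 and the treated WT libraries at 1224 to 1362.

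HOXB6 rose past the threshold in F2, from 134, 165 and 143 to 347, 324 and 322, a change of 1.17 ± 0.12 (SE; limma adjusted p 1.53e-07). In WT it went from 183, 170 and 220 to 367, 340 and 355, a change of 0.89 ± 0.12 (3.76e-06), and in E1 from 692, 847 and 615 to 812, 773 and 929, a change of 0.23 ± 0.12 (0.132). The genes at the head end of the cluster, HOXB2, HOXB3, HOXB4 and HOXB5, which pattern the hindbrain and upper spinal cord, stayed within the fold limit in every line. Their changes ran from -0.71 to 0.03 in WT, from 0.02 to 0.49 in E1 and from -0.78 to -0.46 in F2. For HOXB7 the change in WT was 0.56, that in E1 0.35 and that in F2 0.14.

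In the HOXA cluster, 3 genes other than HOXA13 passed the threshold, all of them lower and all with low or middle paralogue numbers. HOXA5, which acts in lung and neck development, went from 195, 172 and 216 to 71.0, 76.7 and 86.2 in WT and from 260, 283 and 282 to 117, 111 and 94.3 in F2. Those were changes of -1.30 ± 0.14 (SE) and -1.35 ± 0.14, with limma adjusted p of 1.04e-07 and 8.21e-08. In E1, HOXA5 had 133, 133 and 150, then 102, 120 and 88.6, a change of -0.43 ± 0.14 (0.0146). HOXA2, which patterns the second pharyngeal arch, fell in WT from 33.2, 39.6 and 36.9 to 11.8, 15 and 12.3, a change of -1.42 ± 0.23 (limma adjusted p 2.58e-05). In E1 its change was -0.07 and in F2 -0.52, where 1 tazemetostat library, at 59.2 against 31.1 and 32.3, lay within the DMSO range.

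HOXA6 fell in WT from 68.1, 66.0 and 88.0 to 17.7, 21.5 and 32.0, a change of -1.63 ± 0.22 (SE; limma adjusted p 2.71e-06), and changed by -0.55 in E1 and -0.82 in F2. In the reference annotation 39.3% of its exons lie antisense to HOXA-AS3, so its values are uncertain. The abundant genes HOXA7, HOXA9, HOXA10 and HOXA11, of the trunk and limb, stayed within the fold limit, and 62.5% of the HOXA7 exons and 31.1% of the HOXA11 exons lie antisense to noncoding RNAs. HOXA10, a uterine and leukaemia-associated gene, came nearest, with changes of -0.95 ± 0.09 in WT, -0.97 ± 0.09 in F2 and -0.41 ± 0.09 in E1. HOXA10 passed in WT with libraries scaled to the same total, at -1.10, or by the upper quartile, and in F2 by the upper quartile or without F2 DMSO replicate 3 or F2 tazemetostat replicate 3. HOXA3 and HOXA4 changed by between -0.20 and 0.33.

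Of the other HOXC genes, HOXC9, a thoracic gene, fell in WT from 414, 373 and 435 to 180, 188 and 175, a change of -1.16 ± 0.09 (SE; limma adjusted p 3.77e-09). It changed by -0.94 ± 0.09 in E1 and by -0.70 ± 0.09 in F2, and passed in E1 with libraries scaled to the same total. HOXC4, HOXC6, HOXC8 and HOXC10 stayed within the fold limit in all 3 lines, with changes between -0.74 and 0.23. HOXC5 had 5.61 to 18.2 counts over all libraries. It had a change of -0.56 in WT, whereas the values for E1 and F2 were 0.95 and 0.60. It passed in E1 in edgeR, at 1.05, and in the annotation 59.9% of its exons overlap other genes on the same strand.

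Without the drug, clone E1 differed from WT in the middle of HOXB and in HOXD, whereas F2 differed within the fold limit. In E1, 3 of 31 tested genes were higher and 2 lower than in WT past the threshold, where 2.35% of all tested genes were higher and 2.69% lower. HOXB6 was 3.75-fold, HOXB8 2.95-fold and HOXB9 2.61-fold higher than in WT, with log2 differences of 1.90 ± 0.12 (SE), 1.55 ± 0.10 and 1.38 ± 0.08 and limma adjusted p of 1.34e-09, 1.63e-09 and 1.63e-10. HOXD9 was 4.29-fold and HOXD8 2.55-fold lower, at -2.06 ± 0.20 and -1.30 ± 0.18 (limma adjusted p 2.89e-07 and 2.24e-05). The E1 and WT libraries did not overlap for any of the 5 genes. The 5 were picked as past the threshold, so this adds no separate support.

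In F2 with DMSO, 0 of 31 genes were past the threshold in limma, against 0.885% of all genes higher and 2.09% lower. At an unadjusted p under 0.05, 18 were higher and 3 lower, where 14.1% of all tested genes were higher and 18.5% lower at that level, and edgeR and DESeq2 also gave 0 past the threshold. The largest differences from WT were those of HOXB8, at -0.99 ± 0.10 (SE), and HOXB9, at -0.90 ± 0.08, with limma adjusted p of 1.29e-06 and 1.09e-07. With WT DMSO replicate 3 or F2 DMSO replicate 2 left out, HOXB8 passed, and with WT DMSO replicate 2 left out, HOXD13 did, so that the count was then 1. Among the HOXA genes, HOXA3 and HOXA4 were highest relative to WT, at 0.76 and 0.77. The median difference of the 31 genes was 0.25 in F2 and 0.01 in E1, against -0.01 over all tested genes in each.

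Under tazemetostat, E1 had 5 HOX genes higher and 1 lower than WT, where 5.40% of all genes were higher and 5.95% lower. The 5 were HOXA2, HOXB2, HOXB3, HOXB5 and HOXB6, at log2 differences of 1.68, 1.20, 1.14, 1.06 and 1.24, with a limma adjusted p of at most 1.8e-05. HOXB5 lost its call without WT tazemetostat replicate 2, at 0.96, and without E1 tazemetostat replicate 3, at 0.98. The lower gene was HOXB13, at -1.36 ± 0.11 (SE; limma adjusted p 7.58e-09). F2 under tazemetostat had HOXA2 and HOXC5 higher, at 1.52 and 1.16, and HOXB9 and HOXB13 lower, at -1.16 and -1.94, where 7.31% of all genes were higher and 4.97% lower. The limma adjusted p of HOXA2, HOXB9 and HOXB13 was at most 0.00188. HOXC5 passed the filter through its tazemetostat libraries, and its call was lost with a pseudocount of 5, at 0.85. Both clones had HOXA2 above and HOXB13 below WT under the drug, and they were compared with the same WT libraries.

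Whether the lines responded unequally was tested by the response difference: one line's log2 change with the drug, less the other's. Between E1 and WT it was past the threshold for 9 of 31 HOX genes, 7 higher and 2 lower in E1, where 4.79% of all tested genes were higher and 5.21% lower. Without HOXD13, 6 of 30 were higher and 2 lower. The 6 still include HOXC5, which also passed the filter through its tazemetostat libraries. HOXB13 stood at -1.44 ± 0.15 (SE; limma adjusted p 8.7e-07) and HOXB9 at -1.10 ± 0.11 (4.02e-07). HOXB2 stood at 1.20 ± 0.17 (2.38e-05), HOXA2 at 1.36 ± 0.32 (0.00321) and HOXD9 at 1.62 ± 0.28 (0.000201). HOXD8, at 1.11 ± 0.25 (0.00221), and HOXD9 were lower in E1 than in WT with DMSO, while with tazemetostat E1 and WT differed by -0.20 and -0.45, with limma adjusted p of 0.37 and 0.0651. HOXD8 lost the call with a pseudocount of 5 and without WT DMSO replicate 1 or E1 DMSO replicate 1, at 0.94 at the lowest.

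HOXA6 and HOXC5, both of uncertain read assignment, had response differences of 1.08 ± 0.31 (SE; limma adjusted p 0.0108) and 1.51 ± 0.39 between E1 and WT. HOXC5 passed the filter through its tazemetostat libraries, with a mean of 8.99 with DMSO and 11.8 with the drug. Its p-values are therefore not given. HOXA6 lost its call with a pseudocount of 5 and without WT DMSO replicate 3, WT tazemetostat replicate 1 or E1 DMSO replicate 3, at 0.90 at the lowest, and HOXC5 lost it in DESeq2. HOXD13 had a response difference of 1.93 ± 0.60 (SE), a value that its 0 reads in E1 with DMSO leave dependent on the scale. It ran from 1.14 with a pseudocount of 5 to 4.82 in edgeR and was 1.28 without WT DMSO replicate 1. With no filter on low genes it lost its call. No p-value is given, since HOXD13 entered the test through its tazemetostat libraries. Between F2 and WT the response differed past the threshold for HOXB13, at -1.78 ± 0.15 (limma adjusted p 1.25e-07), and for HOXC5, at 1.16 ± 0.39. In that contrast 4.82% of all genes were higher and 2.66% lower. HOXC5 lost this call in 10 of 21 alternatives, edgeR and DESeq2 among them, and when WT DMSO replicate 1 or 3, WT tazemetostat replicate 1 or 2 or F2 DMSO replicate 2 was left out. The HOXB13 difference passed in both clones under every alternative tried. The clones share the WT libraries, so these 2 differences are not independent.

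**Figure D4:**
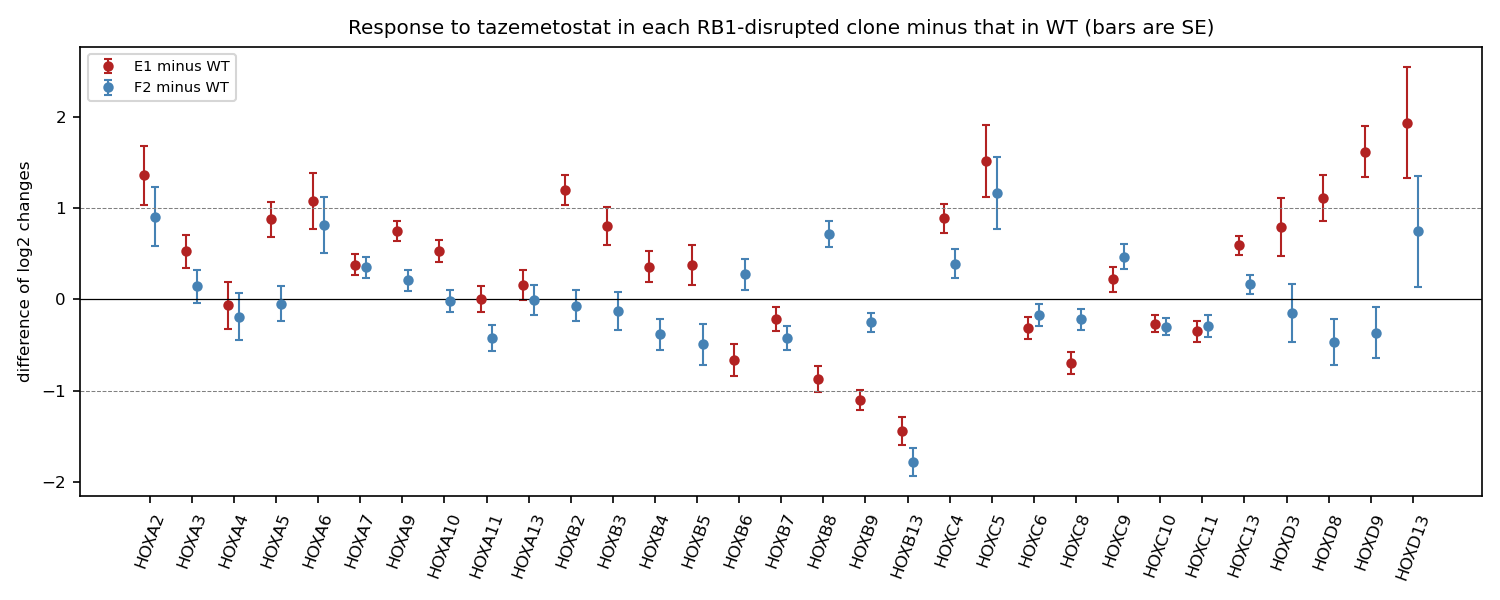
Response to tazemetostat in E1 (red) and F2 (blue) minus that in WT (y axis, difference of log2 changes; bars are 1 SE) for the 31 tested HOX genes (x axis), with dashed lines at a difference of 1 in either direction. HOXB13 lies below the lower line in both clones, at -1.44 in E1 and -1.78 in F2, whereas HOXB9 and HOXD9 lie beyond a line in E1 but not in F2.

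The clones also differed from each other. With DMSO, HOXB6, HOXB8 and HOXB9 were higher in E1 than in F2, by 2.27, 2.54 and 2.28 on the log2 scale, and HOXD3, HOXD8 and HOXD9 lower, by a difference of -1.46, -1.52 and -2.71, where 4.05% of all genes were higher and 3.52% lower. The limma adjusted p of these 6 genes was at most 4.59e-05. With tazemetostat HOXB5, HOXB6 and HOXB9 were higher in E1 than in F2, at 1.45, 1.34 and 1.43 (limma adjusted p at most 1.15e-06), where 2.39% of all genes were higher and 4.43% lower. The count of 3 became 5 without E1 tazemetostat replicate 2. The log2 change with the drug in E1 less that in F2 was 1.98 for HOXD9, 1.57 for HOXD8 and -1.58 for HOXB8, all of which had a positive change in both clones. For HOXB2 it was 1.27, from a change of 0.49 in E1 and one of -0.78 in F2. These were the 4 that passed, where 1.78% of all genes were higher and 4.02% lower (limma adjusted p at most 0.000222). For HOXB13 the 2 clones' responses differed by 0.34 ± 0.15 (SE), which did not pass (limma adjusted p 0.159).

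Noncoding RNAs of the clusters included HOTAIR, which fell, and HOXD-AS1, which rose, in all 3 lines. Of 26 listed, 22 were in the table and 14 were tested: 1 rose and 4 fell in WT, 2 rose and 1 fell in E1, and 1 rose and 2 fell in F2, with median changes of -0.12, -0.07 and -0.18. Over all tested genes the shares were 14.5% and 6.77%, 11.3% and 3.78%, and 13.3% and 3.71%, so the rises were near the background. HOXA-AS3, 1 of the 4 that fell in WT, lost its call in edgeR and DESeq2. HOTAIR, which is transcribed antisense from the stretch between HOXC11 and HOXC12, went from 1498 ± 153 (SD, n = 3) to 605 ± 20 in WT, from 1354 ± 233 to 441 ± 25 in E1 and from 1622 ± 60 to 442 ± 24 in F2 (limma adjusted p at most 1.51e-09). HOXD-AS1, transcribed antisense to HOXD1, went from 14.5 ± 6.5 to 178 ± 6.2, from 19.7 ± 4.5 to 480 ± 52 and from 4.30 ± 0.75 to 145 ± 19 (limma adjusted p at most 1.57e-10). HOXB-AS3 was higher in E1 than in WT with DMSO, at 194 ± 49 against 48.9 ± 7.1 (limma adjusted p 1.3e-06), as was HOXB6, on whose opposite strand it lies. Of the genes beside the clusters, 15 were listed and 10 tested. PRAC1, next to HOXB13, fell in all 3 lines, PRAC2 fell in WT, and TTLL6 fell in E1 and F2. Thus 2 of 10 fell and 0 rose in each line, where 6.77%, 3.78% and 3.71% of all tested genes fell. PRAC1 went from 89.1 ± 16 to 28.6 ± 8.5 in WT, where HOXB13 changed by -0.17, from 45.1 ± 14 to 13.5 ± 8.6 in E1 and from 63.2 ± 22 to 16.9 ± 5.6 in F2.

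HOX proteins bind DNA together with TALE homeodomain cofactors. Of 9 tested, 3 rose and 1 fell with tazemetostat in WT, 4 rose and 0 fell in E1, and 3 rose and 0 fell in F2. Of all tested genes 14.5%, 11.3% and 13.3% rose and 6.77%, 3.78% and 3.71% fell in WT, E1 and F2. The cofactors past the threshold included MEIS1 and PKNOX2, which rose in all 3 lines, MEIS3, which rose in E1, and MEIS2, which fell in WT. MEIS1, the partner of HOXA9 in leukaemia, went from 0.922 ± 0.95 (SD, n = 3) to 13.1 ± 0.88 in WT and from 0 to 11.8 ± 1.3 in E1 and to 47.6 ± 8.3 in F2. PKNOX2 went from 0 to 113 ± 8.5 in WT, from 0.298 ± 0.52 to 139 ± 4.5 in E1 and from 1.03 ± 1.0 to 110 ± 13 in F2. MEIS1 and PKNOX2 thus entered the test through their tazemetostat libraries alone and had to differ between groups. The counts of cofactors that rose include both. MEIS2, at 5557 ± 56 in WT with DMSO, went to 2652 ± 135, a change of -1.07 ± 0.07 (SE; limma adjusted p 1.59e-10).

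Retinoic acid, a vitamin A derivative that activates the head-end HOX genes in embryos, was followed by 17 listed genes, of which 10 were tested. ALDH1A1, CYP26B1, DHRS3 and STRA6, which make, degrade, recycle and import retinoids, rose in all 3 lines, and CYP26A1 fell in F2. Thus 4 of 10 rose in each line, where 14.5%, 11.3% and 13.3% of all tested genes rose in WT, E1 and F2. In F2 3.71% of all tested genes fell. ALDH1A1 had 0 reads in every DMSO library and means of 1866 ± 62 (SD, n = 3) in WT, 393 ± 35 in E1 and 569 ± 31 in F2 with tazemetostat. ALDH1A1 thus entered the test through its tazemetostat libraries alone and had to differ between groups. The median changes of the 10 were 0.53, 0.03 and 0.28 in WT, E1 and F2. DHRS3 in E1, at 1.02, and MEIS3 in E1, at 1.03, fell under the fold limit with libraries scaled to the same total or by the upper quartile. Of 6 CDX and ParaHox genes, GSX2 was the 1 tested, and it went from 61.6 ± 11 to 197 ± 9.0 in WT, from 97.3 ± 24 to 67.4 ± 15 in E1 and from 75.5 ± 10 to 200 ± 8.8 in F2.

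Among 18 Polycomb genes, all tested, JARID2, an accessory subunit of the EZH2 complex, rose and BMI1, of the complex that reads its mark, fell in all 3 lines, whereas EZH2 and PHF19 fell past the threshold in WT. Of the 18, 1 rose and 3 fell in WT, and 1 rose and 1 fell in each of E1 and F2. Of all tested genes 14.5%, 11.3% and 13.3% rose and 6.77%, 3.78% and 3.71% fell in WT, E1 and F2. The 18 genes had median changes of -0.26, -0.01 and -0.14 for WT, E1 and F2. JARID2 went from 102 ± 8.8 (SD, n = 3) to 1436 ± 52 in WT, from 45.3 ± 9.8 to 1471 ± 17 in E1 and from 218 ± 19 to 1495 ± 33 in F2. EZH2 itself went from 2478 ± 89 to 876 ± 42 in WT, from 3178 ± 349 to 2989 ± 63 in E1 and from 3207 ± 148 to 2649 ± 60 in F2. Of 14 trithorax-group genes, PSIP1, which tethers MLL complexes to chromatin, fell in WT from 9938 ± 432 to 3751 ± 278, a change of -1.41 ± 0.08 (SE; limma adjusted p 2.14e-11). PSIP1 was the 1 of 14 past the threshold in WT, and 0 passed in E1 and F2. The median changes of the 14 were -0.18, -0.12 and -0.07 in WT, E1 and F2.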

How the data were processed

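Poly(A) RNA from 18 G401 libraries was sequenced as paired-end reads with a stranded kit, per the labels' protocols. Reads were trimmed with Trim Galore 0.4.4, aligned to hg19 with STAR 2.6.0a and counted with HTSeq, and DESeq2 was used, per the submitters' processing notes; the annotation and the strand setting of the counting are not given in the sources used here. The table the authors deposited holds a normalized signal: gene counts divided by 1 size factor per library. The factors lay between 0.812 and 1.1449, and 100% of values were whole reads, within 0.001 reads, after multiplication by them; F2 tazemetostat replicate 2, at 0.9908, is so near 1 that its step cannot be told from rounding alone. Counting intervals (exact, 95%) and floors (3 reads per library) cover counting error only.

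The values were tested as log2(value + 1) with limma (version 3.58.1, R version 4.3.3) and a mean-variance trend, over 16154 genes with a mean of at least 10, in 1 fit of the 6 group means with 12 contrasts, and Benjamini-Hochberg adjustment within each. Fold changes on the log2(value + 1) scale understate those of low genes. Every HOX gene of the list is named; listed pathway genes may be named where past the threshold in a treatment contrast or response difference. HOXB-AS3 was named after its values were seen. The members and lists were chosen with earlier results of these data known. Some genes of the clusters and lists are not reported here. Exon lengths and overlaps came from GENCODE v29 (GRCh38), a build other than that of the files.

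Alternatives were pseudocounts of 0.5 and 5, filters at a mean of 1 and 50 and none, scaling to the same total or by the upper quartile, dropping the fold limit, fitting a contrast's own groups alone, the replicate number as a block, each library left out in turn, and edgeR 4.0.16 and DESeq2 1.42.0 on the recovered reads. The titles give replicate numbers 1 to 3 in every group. Deviations of same-numbered libraries from their group means correlated above 0.1 in every pair only between F2 and WT with DMSO (lowest 0.108, mean 0.222), a pairing that comes from the data and not from a stated batch. The code was tested on simulated data. Figures were drawn with matplotlib 3.10.9.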

Additional observations from a re-analysis of the deposited data

Results flagged for a closer look

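A test of the difference in response to tazemetostat between lines (limma, adjusted p under 0.05 and a difference of at least 1 on the log2 scale) picked out 15 results. Between E1 and WT these were HOXA2 at 1.36, HOXA6 at 1.08, HOXB2 at 1.20, HOXC5 at 1.51, HOXD8 at 1.11, HOXD9 at 1.62 and HOXD13 at 1.93, where the response of E1 was the higher, and HOXB9 at -1.10 and HOXB13 at -1.44, where it was the lower. Between F2 and WT they were HOXB13 at -1.78 and HOXC5 at 1.16. Between E1 and F2 they were HOXB2 at 1.27, HOXD8 at 1.57 and HOXD9 at 1.98, higher in E1, and HOXB8 at -1.58, lower in E1. HOXB2, HOXD8 and HOXD9 appear for E1 against both other lines, in contrasts that share the E1 libraries. HOXB13 and HOXC5 appear in both clones against WT, in contrasts that share the WT libraries. HOXC5 and HOXD13 entered this test through their tazemetostat libraries, with means under 10 over the DMSO libraries, so their calls are described without p-values.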

How the results depend on the processing

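Of 69 calls of HOX genes over the 12 contrasts, 62 were kept in every alternative that tested the gene, 7 were lost in some and 0 reversed; every call of a treatment contrast was kept. With no fold limit the HOX count rose from 12 to 23 in WT, from 7 to 24 in E1 and from 11 to 24 in F2 for tazemetostat against DMSO. For E1 against WT it rose from 5 to 15 with DMSO and from 6 to 21 with tazemetostat, and for F2 against WT from 0 to 16 and from 4 to 21. For the response differences it rose from 9 to 22 (E1 minus WT), from 2 to 9 (F2 minus WT) and from 4 to 16 (E1 minus F2), and for E1 against F2 from 6 to 22 with DMSO and from 3 to 14 with tazemetostat. The count for F2 against WT under tazemetostat was 2 with a filter at a mean of 50. The 2 response differences between F2 and WT became 1 with a pseudocount of 5, with filters at a mean of 1 or 50 or none, and in DESeq2. In edgeR 1 HOXA gene passed as higher in place of HOXC5, and HOXB13 kept its call. With 1 library left out at a time, the counts ran from 0 to 1 for F2 against WT with DMSO, from 1 to 3 for the response difference F2 minus WT (3 without WT tazemetostat replicate 3 or F2 tazemetostat replicate 1) and from 3 to 5 for E1 against F2 under tazemetostat. With the replicate block the counts of HOX genes in all 12 contrasts were those of the fit without it (12 in WT, 7 in E1 and 11 in F2 for tazemetostat), and no HOX call changed.

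Over all genes, scaling to the same total moved the median change by -0.15 for tazemetostat in WT, 0.15 for F2 against WT under tazemetostat and 0.12 for the response difference F2 minus WT, and the share of higher calls from 68.2% to 57.7%, from 59.5% to 71.6% and from 64.5% to 75.8%. The counts of all genes past the threshold moved by over 1.5 times with no fold limit, to 10367, 7554 and 8438 from 3436, 2434 and 2745 for tazemetostat in WT, E1 and F2, to 3740 from 814 (E1 against WT) and 3260 from 481 (F2 against WT) with DMSO, to 8373 from 1833 and 8573 from 1984 with tazemetostat, to 5720 from 1616, 4344 from 1208 and 2384 from 938 for the response differences E1 minus WT, F2 minus WT and E1 minus F2, and to 5997 from 1222 and 5575 from 1101 for E1 against F2 with DMSO and tazemetostat. With a filter at a mean of 1 and with none they were 5346 and 5720, 3870 and 4082, and 4439 and 4698 for tazemetostat in WT, E1 and F2, 2912 and 3130 (E1 against WT), 3046 and 3273 (F2 against WT) and 1859 and 2001 (E1 against F2) under tazemetostat. With a filter at a mean of 50 they were 1550 and 1768 for tazemetostat in E1 and F2, 504 and 1139 for E1 against WT with DMSO and tazemetostat, 1230 for F2 against WT under tazemetostat, 792 and 605 for E1 against F2 with DMSO and tazemetostat, and 605 for the response difference E1 minus F2. These filters change how many genes are tested. HOXB1, HOXC12, HOXD1, HOXD4, HOXD10, HOXD11 and HOXD12 stayed under the filter, and the part of depth in their low or absent counts was not tested.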
